A study of Mus musculus with 4 samples.

Results

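Methylated DNA in the pancreatic islets of offspring was compared between fathers with a type 2 diabetes model (T2D) and control fathers, at the level of single methylated regions. The material was 328282 peaks on the 19 autosomes, 163824 in the library from offspring of T2D fathers and 164458 in the library from offspring of control fathers, out of 690960 peaks in the 4 libraries of the study on the autosomes, X and Y. Peaks of the islet lists that overlapped by at least 1 bp were joined. A region that held exactly 1 peak of each list was taken as a pair, and tags (sequenced reads), tags per kb, width and summit position were compared within pairs.

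The animals were ICR mice, an outbred stock. Founders were sibling males. From 3 weeks of age those of the T2D group were fed a high-fat diet in which fat supplied 33% of the energy, they received a low dose of streptozotocin (STZ), which kills beta cells, at 12 weeks, and were kept if fasting glucose lay between 7 and 11 mM in the following 4 weeks. Control founders ate a control diet, and the labels name no injection for them. At 16 weeks founders were mated with females on standard diet, so the offspring themselves received neither the high-fat diet nor STZ from the experimenters as far as the labels say. Islets were collected from 6 offspring per group at 3 weeks of age, and sperm from 6 founders per group served as the comparison. Each group is 1 library. Whether DNA of all 6 animals was pooled for it, and whether littermates were used, is unstated, and no difference below has a replicate check. Methylation peaks carry no expression values, so the islet identity of the tissue was not checked against marker genes.

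In MeDIP-seq, an antibody that binds methylated cytosine enriches methylated fragments from sheared DNA, which are then sequenced. Cytosine methylation in mammals sits mainly at CG dinucleotides, covers most of the genome, and is kept low at active promoters. Because the antibody captures dense methylated cytosines best, a peak marks a stretch with many methylated CG sites, and the tags in it rise with both methylation and the density of such sites. Islets are clusters of endocrine cells in which insulin-producing beta cells are the most abundant type in mice. A peak list from whole islets is an average over these cell types, and a change in cell mixture and a change within a cell type cannot be told apart.

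The islet lists held nearly equal material, with 8077079 tags in T2D peaks and 8107950 in control peaks. T2D tags were therefore multiplied by 1.004 before ratios were taken. The sources used here do not give the total number of islet reads. For sperm, the lists summed to 10972389 and 10992137 tags. The smallest peak held 18 tags in either islet list and 21 tags in either sperm list.

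Most regions found in both islet lists matched as simple pairs. The lists formed 217187 regions, of which 109337 (50.3%) were one-to-one pairs, 53283 held a T2D peak alone and 53701 a control peak alone. Only 866 regions were not simple among the 110203 that both lists touched, so pairs made up 99.2% of these. Pairs took 66.7% of T2D peaks and 75.1% of T2D tags, and 66.5% of control peaks and 74.1% of control tags. The median pair overlapped over 100% of its narrower peak. Few pairs depended on the smallest overlaps. An overlap of 50 bp or less occurred in 52 pairs, and these had a median log2 tag ratio of -0.097 (SD 0.47). On the other side of the threshold, 81 T2D peaks without a partner lay less than 50 bp from a control peak without one. Their median log2 ratio, here of tags as deposited and not scaled, was -0.052 (SD 0.58).

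Within pairs, median scaled tags were alike in the islets of both groups. Because the lists were scaled to equal summed tags and islet depth is not given, the total amount of methylated DNA recovered cannot be compared. The median T2D to control ratio of scaled tags was 1.004, which is the scaling factor itself, since the median pair held equal tags. The quartiles lay at -0.27 and 0.30 on the log2 scale, and the 5th and 95th percentiles corresponded to ratios of 0.608 and 1.71. Across pairs the log2 tags of both lists correlated with a Pearson r of 0.82 (109337 pairs, all from the same 2 libraries). Sperm pairs, 121309 in number, gave a median ratio of 1.002, 5th and 95th percentiles of 0.617 and 1.64, and an r of 0.84. The sign of the islet median rested on the scaling, with a log2 value of 0 for tags as deposited and -0.014 when the tags of pairs alone set the scale. With a caller score of at least 100 in both lists it was 0.059, on a scale set by the summed tags of the filtered lists. Its interval was the single value 0.059, as happens where the median pair holds equal tags, so it is not read as a gain in T2D.

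The differences between conditions were smaller than those between tissues measured in the same way. The SD of log2 tag ratios was 0.45 between T2D and control islets and 0.43 between T2D and control sperm. Between islets and sperm it was 0.63 in either condition, over 96735 control and 94855 T2D pairs. A change of 2-fold or more was seen in 3.42% of islet pairs between conditions, in 2.89% of sperm pairs between conditions, and in 10.9% of pairs between the tissues.

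**Figure D1:**
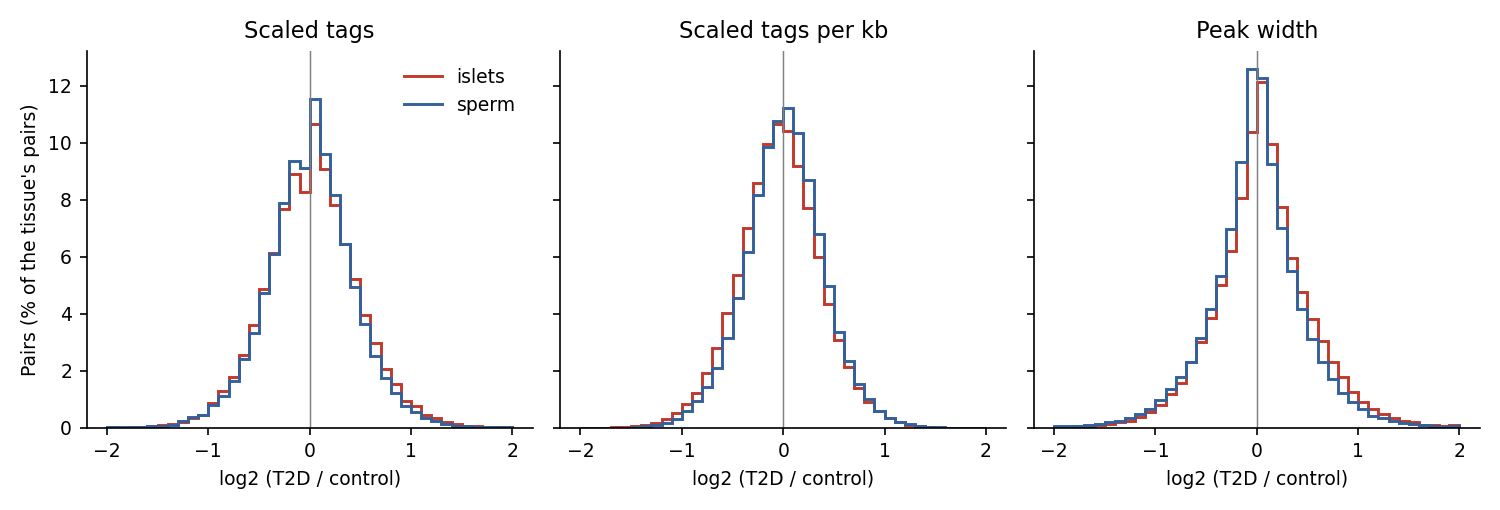
Share of one-to-one pairs (percent, vertical axis) by the log2 ratio of T2D over control (horizontal axis, bins of 0.1, with the few values beyond the axis counted in the end bins) for scaled tags, scaled tags per kb and peak width, in islets (109337 pairs) and sperm (121309 pairs). The tag curves nearly coincide, while the islet curve lies slightly left of the sperm curve for tags per kb and slightly right of it for width.

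Peaks in the T2D islet library were slightly wider than their control partners, and their tags were spread correspondingly thinner. The median width ratio was 1.033 (log2 0.047, interval 0.045 to 0.049), and the median pair was 31 bp wider in T2D (interval 29 to 32 bp). Of the pairs, 55.7% were wider and 44.1% narrower in T2D. The median of scaled tags per kb fell by 0.034 on the log2 scale (interval -0.037 to -0.031), a ratio of 0.976. Among the 33748 pairs left when both lists were limited to peaks with a caller score of at least 100, the width median was 0.039 but that of tags per kb turned to 0.018. Tags in that set were scaled to the summed tags of the filtered lists, and median log2 scaled tags was 0.059. The interval of the latter was that single value, as happens where the median pair holds equal tags, so 0.059 is the scaling itself. The scaling shifts every log2 ratio alike, and 0.018 is below 0.059. Without it, the median of tags per kb in this set thus lies below 0, as over all pairs. Both offsets are small beside the spread among pairs, whose SD was 0.48 for width and 0.41 for tags per kb. In sperm the median width ratio was 0.998 (log2 -0.0029, interval -0.0050 to 0) and the median difference was -2 bp, and tags per kb gave a ratio of 1.01.

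The extra width of T2D islet peaks was present on every autosome. Over the 19 autosomes, the median within-pair difference ranged from 26 bp on chromosomes 3 and 16 to 35.5 bp on chromosome 18, and it was positive on all 19. In sperm the same median ranged from -8 bp to 8 bp and was positive on 6 autosomes. Along the chromosomes, cut into 10 equal parts, the islet difference lay between 26 and 36 bp. By strength, it rose from 16 bp in the decile of pairs with fewest tags to 54 bp in the decile with most, while the width ratio stayed between 1.028 and 1.035. Median log2 ratios of tags per kb were below 0 on all 19 autosomes, from -0.052 on chromosome 11 to -0.013 on chromosome 17.

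Both edges of the peak took part. The T2D start lay a median of 13 bp before the control start (a value of -13 bp, quartiles -109 and 75 bp) and the T2D end a median of 12 bp after the control end (quartiles -76 and 107 bp). Summits, in contrast, showed no direction, with a median signed shift of 0 bp. In sperm the start and end medians were 1 bp and -2 bp.

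The width offset was also present among the narrowest peaks of the lists, where it was about constant in bp. At the 0.1, 1, 5 and 25 percentiles of width, T2D islet peaks were 18, 19, 17 and 19 bp wider than control islet peaks, for example 436 bp against 417 bp at the 1 percentile. At the median, the 75 and the 95 percentile the differences were 33, 51 and 81 bp. The narrowest peak of all measured 310 bp in T2D and 289 bp in control islets. In sperm the corresponding differences ran from -3 to -12 bp. Per the file headers, the fragment length that the caller estimated and used was 272 bp for T2D sperm and 278 bp for control sperm, 6 bp shorter in T2D, which is the same direction as the sperm widths. No source used here gives the fragment length of the islet libraries, and its part in the islet width difference was not tested.

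**Figure D2:**
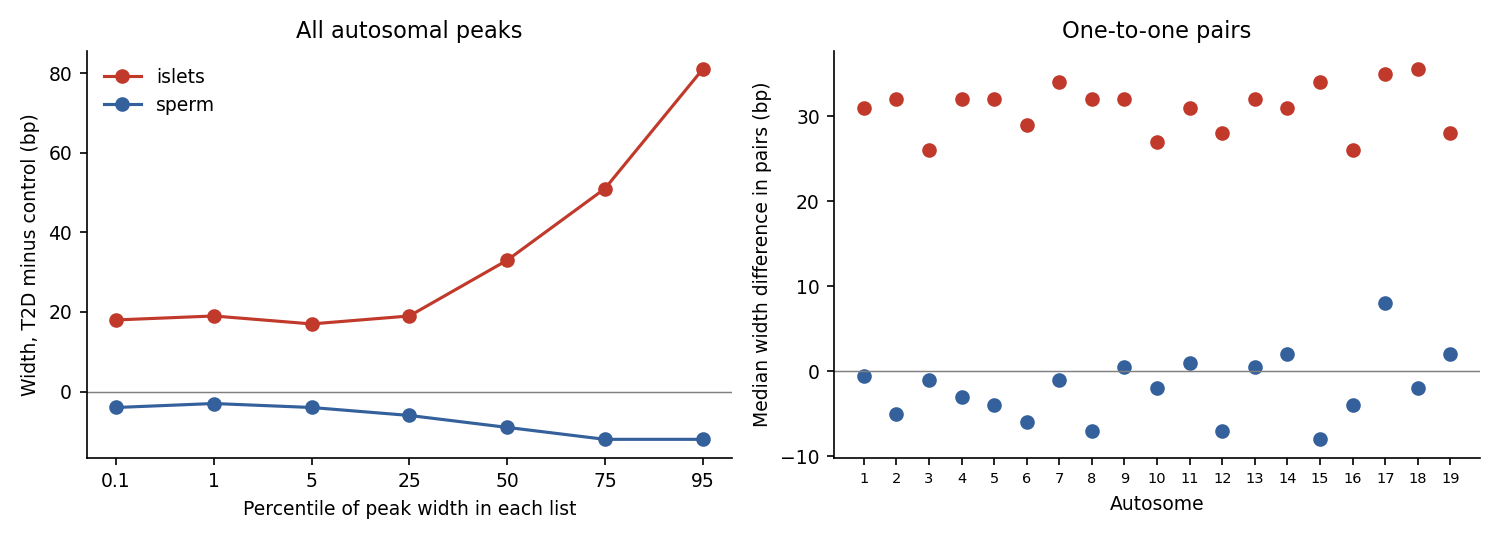
Left, the difference in peak width between the T2D and control lists (bp) at 7 percentiles of width, for islets and sperm. Right, the median within-pair width difference (bp) for each of the 19 autosomes, where islet medians lie between 26 and 35.5 bp and sperm medians between -8 and 8 bp.

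A change of 2-fold or more in scaled tags was found in 2251 islet pairs with more tags in T2D (2.06% of pairs) and in 1490 with fewer (1.36%). When the tags of pairs alone set the scale, the islet counts were 2015 higher and 1710 lower, and for tags as deposited 2250 and 1701. In sperm 1831 pairs were higher (1.51%) and 1671 lower (1.38%). Most of these islet pairs also differed in width. The 2251 higher pairs had a median width of 1423 bp in T2D against 715 bp in control, with 65 against 28 tags. The 1490 lower pairs had 737 bp against 1406 bp, with 28 against 69 tags. Pairs of like width, in which the narrower peak had at least 80% of the width of the broader, made up 62413 of all pairs (57.1%) but 231 of the higher (10.3%) and 199 of the lower pairs (13.4%). Among the 62413 pairs of like width, 0.370% were thus 2-fold higher and 0.319% 2-fold lower. When each peak had to cover at least 50% of the other, 103238 pairs remained. Of these, 1129 were 2-fold higher (1.09%) and 816 lower (0.790%).

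Changes of 2-fold or more were also counted for width and for tags per kb. Tags per kb is tags divided by width, so its counts are not independent of those of width. A width at least 2-fold greater in T2D was seen in 3416 islet pairs (3.12%) and at least 2-fold smaller in 1947 (1.78%), together 4.91%, against 2726 (2.25%) and 2833 (2.34%), together 4.58%, in sperm. Scaled tags per kb were at least 2-fold higher in 807 islet pairs (0.738%) and at least 2-fold lower in 1318 (1.21%), together 1.94%, against 964 (0.795%) and 866 (0.714%), together 1.51%, in sperm. In the 3416 pairs that were wider in T2D, log2 tags were a median of 0.80 higher and tags per kb fell by 0.45. In the 1947 narrower pairs, the medians were -0.82 for log2 tags and 0.43 for tags per kb. Choosing pairs by width tilts tags per kb the other way, so neither set is a result about density. The islet counts leaned towards wider and less dense peaks in T2D, and the sperm counts were near balance.

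The spread of tag ratios exceeded counting error except in the decile of pairs with fewest tags. In the decile of islet pairs with 36 to 52 tags over both peaks, the SD of log2 ratios was 0.35, below the counting SD of 0.43, and no pair reached 2-fold. The floor of 18 tags per peak leaves no room for a 2-fold ratio at these sums. In the decile with 71 to 80 tags the SD was 0.50 against a counting SD of 0.34, and in the decile with 193 to 3875 tags it was 0.39 against 0.19. Sperm gave 0.35 against 0.38 in its lowest decile and 0.38 against 0.17 in its highest. The counting interval of the ratio excluded 1 in 16.7% of islet pairs and in 18.3% of sperm pairs. Among islet pairs of like width the share was 9.15%.

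**Figure D3:**
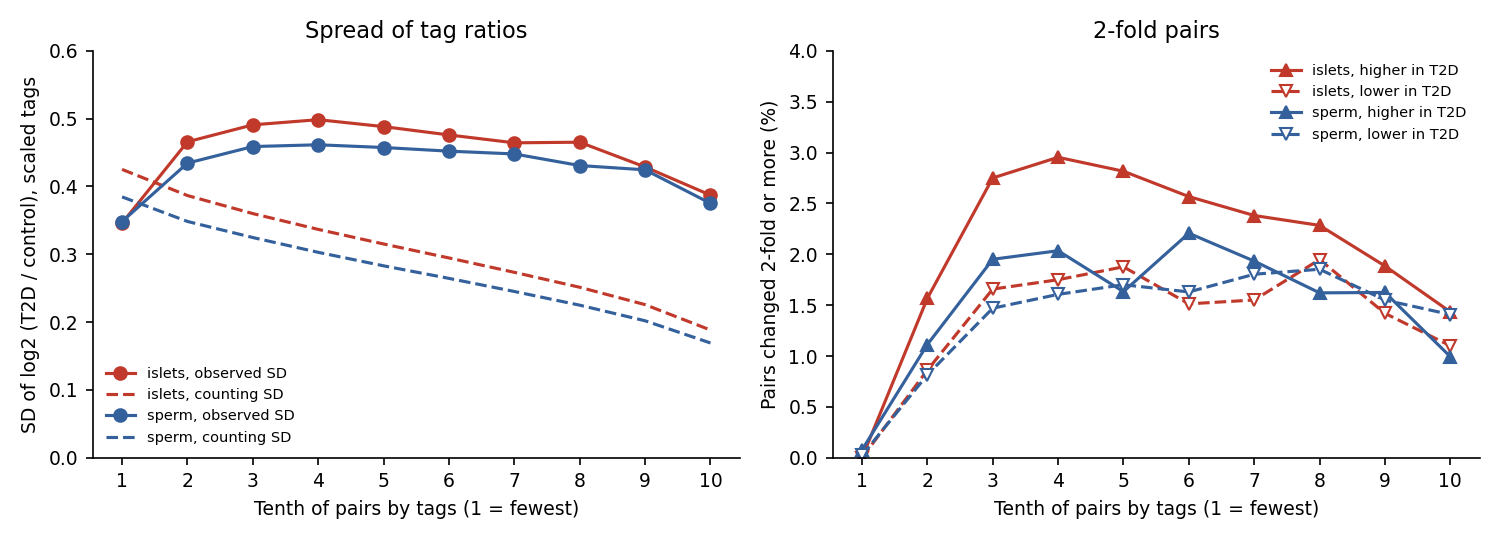
Left, the SD of log2 tag ratios (points) and the SD that counting alone gives (dashed lines) by decile of pairs ranked by tags over both peaks. Right, the percent of pairs with at least 2-fold more (filled) or fewer (open) tags in T2D in the same deciles. In islets the higher pairs peak at 2.95% in the decile with 71 to 80 tags, where 1.75% are lower.

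In the decile of islet pairs with most tags, the SD of log2 ratios was 0.39 against a counting SD of 0.19. The 5 pairs with most tags of all are extremes and do not stand for that decile. The first lay on chromosome 2 from 98502170 to 98504688 in T2D, with 1778 tags in T2D and 2097 in control islets. The second, just beside it from 98506177 to 98507711, held 1764 and 1756 tags, and the third, on chromosome 15 from 74915559 to 74917695, held 1168 and 1162. They were followed by chromosome 4 from 3016257 to 3018936 with 797 and 753 tags, and by chromosome 10 from 80640484 to 80643310 with 638 and 660. The ratio interval includes 1 in 4 of these 5 regions. The exception was the first, at 0.851 (0.799 to 0.907), where the control peak was the wider one (a T2D minus control difference of -1572 bp). The same regions held 1236 and 1264, 1421 and 1418, 966 and 980, and 433 and 419 tags in T2D and control sperm, and at the fifth region the T2D sperm list alone had a peak, with 371 tags.

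Among the 47908 pairs with at least 100 tags over both peaks, the 5 with the highest T2D ratio all combined a broad T2D peak with a narrow control peak. On chromosome 12, the T2D peak from 116796042 to 116798909 held 147 tags, and its control partner from 116796318 to 116796919 held 24, a scaled ratio of 6.15 (3.98 to 9.90). Its neighbour from 116801179 to 116803874 held 108 against 22 tags, a ratio of 4.93 (3.10 to 8.19). The third, on chromosome 2 from 76472514 to 76474984, held 124 against 27 tags. The fourth, on chromosome 17 from 6448304 to 6451434, held 290 against 64 tags, and the fifth, on chromosome 16 from 3516073 to 3517725, held 104 against 23. T2D peaks in this group were 1653 to 3131 bp wide and control peaks 428 to 715 bp. Density changed less, with ratios of scaled tags per kb of 1.29, 1.27, 0.799, 1.04 and 1.30 in the same order.

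In 3 of the 5 pairs with the lowest T2D ratio, a broad control peak faced a narrow T2D peak. On chromosome 7 the control peak from 38975594 to 38978830 held 250 tags against 33 in T2D, 7.55 times as many after scaling (5.24 to 11.2). On chromosome 11 from 96696243 to 96698157 it held 145 against 29, and on chromosome 17 from 5771897 to 5775075 it held 154 against 33. After scaling, control density was 1.60, 1.72 and 1.03 times that of T2D at these 3 regions. At the remaining 2 regions widths differed by less, and control density was 4.44 and 2.81 times that of T2D. On chromosome 17 from 17304494 to 17305382, the control peak held 113 tags in 889 bp and the T2D peak 19 tags in 666 bp, 127 against 28.5 tags per kb and 5.92 times as many tags after scaling (3.62 to 10.2). Sperm held 60 control and 59 T2D tags there. On chromosome 14 from 44620979 to 44621994, the control peak held 99 tags in 1016 bp against 21 tags in 609 bp.

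Density ratios were listed as well, for regions chosen after the values were seen. The lowest T2D ratio of scaled tags per kb lay on chromosome 11, where the control peak from 63587933 to 63588679 held 129 tags (173 per kb) and the T2D peak 45 tags (38.1 per kb), a ratio of 0.221. Control and T2D sperm held 139 and 143 tags there. The highest lay on chromosome 13, where the T2D peak from 110728017 to 110728557 held 84 tags (155 per kb) and the control peak 57 tags spread over 1294 bp (44.0 per kb), a ratio of 3.54. Sperm held 70 T2D and 58 control tags at that region.

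The largest gains and losses of width were similar in size. Among 33545 pairs with a caller score of at least 100 in both lists, the largest gain was on chromosome 10, where the T2D peak from 117099094 to 117102074 spanned 2981 bp against 1049 bp in control, with 218 against 99 tags. It was followed by chromosome 2 from 165876381 to 165878799 (2419 against 724 bp) and chromosome 1 from 77394332 to 77396533 (2202 against 509 bp). The largest loss was on chromosome 19, where the control peak from 29155872 to 29158949 spanned 3078 bp with 353 tags against 1088 bp with 136 tags in T2D. The control peaks on chromosome 4 from 149604667 to 149607141 and on chromosome 6 from 100997130 to 100999491 spanned 2475 and 2362 bp against 515 and 475 bp. The summits of both peaks were 122 bp apart or less at 5 of these 6 regions. The exception was the chromosome 6 region, with a shift of -989 bp.

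Summit positions matched closely in most pairs. The median distance between the T2D and control summit was 30 bp (quartiles 13 and 65 bp), and 20.6% of summits lay within 10 bp of each other. In sperm the median was 28 bp (12 and 62 bp). A minority was displaced by much more, with 9558 islet pairs (8.74%) and 10431 sperm pairs (8.60%) over 200 bp apart. In islets these long shifts went right in 4728 and left in 4830 pairs. Their share rose with width, from 0.783% of pairs 500 to 750 bp wide to 27.5% of those over 2000 bp, and from 0.246% to 24.5% in sperm.

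The 3 largest summit distances among the 28951 pairs of like width with at least 100 tags were in broad peaks of 3100 to 3260 bp. On chromosome 17 the T2D peak ran from 24522651 to 24525910 and the control peak from 24522679 to 24525904, with 236 and 213 tags, and the summit shift, T2D minus control, was -2278 bp. On chromosome 18 from 67530093 to 67533249 the shift was -2126 bp, with 161 and 174 tags. On chromosome 11 from 102152773 to 102156005 it was 1996 bp, with 179 and 219 tags. The intervals of all 3 tag ratios include 1.

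**Figure D4:**
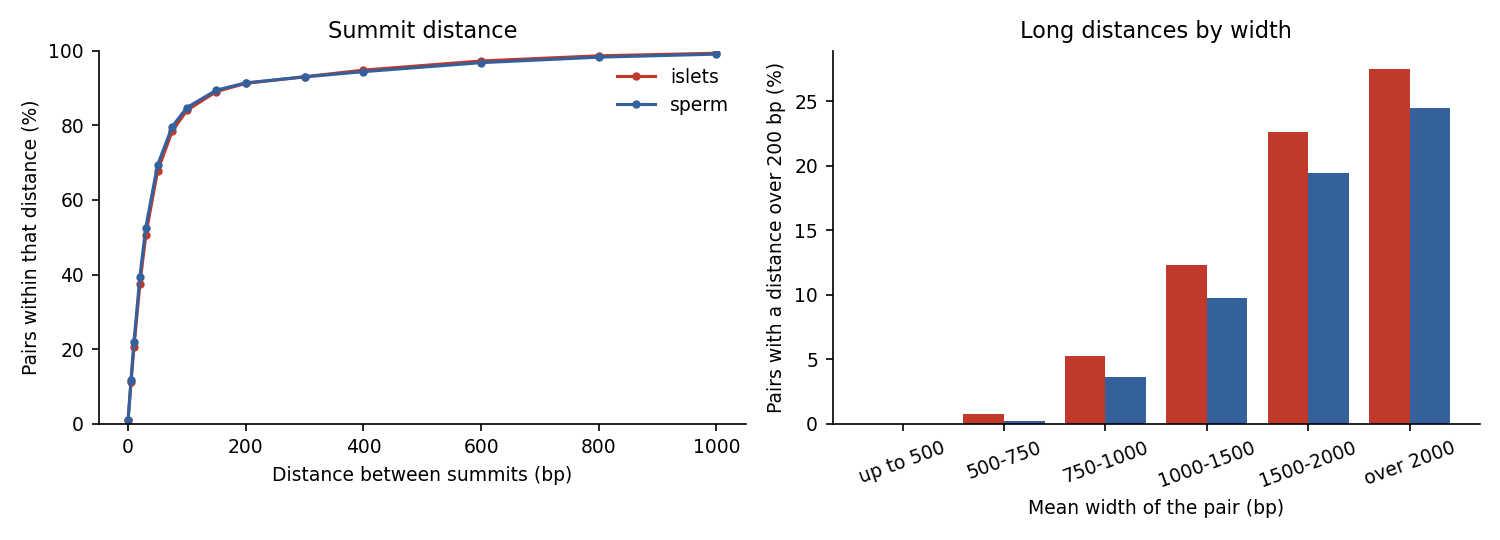
Left, the percent of pairs whose summits lie within a given distance (bp), with islets and sperm nearly on the same curve. Right, the percent of pairs with summits over 200 bp apart by the mean width of the pair (bp), rising to 27.5% in islets and 24.5% in sperm for pairs over 2000 bp wide.

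Neighbouring control peaks were joined into a single T2D peak more often than the reverse. Both kinds were rare. Of all 217187 islet regions, 1 T2D peak faced 2 control peaks in 528 (0.243%). In 312 regions (0.144%) 1 control peak faced 2 T2D peaks, and 26 regions (0.012%) held several peaks of both lists. The ratio of the first counts was 1.69 (1.47 to 1.95). In sperm the counts were 494 (0.216%), 512 (0.224%) and 39 (0.017%) of 228908 regions, a ratio of 0.965 (0.851 to 1.09). Joined T2D peaks outnumbered joined control peaks on 16 of the 19 autosomes in islets, the others being chromosomes 13, 16 and 18, and on 6 of 19 in sperm. No peak of either tissue faced more than 2 peaks of the other list without its region holding several of both. With a caller score of at least 100 in both lists, the islet counts were 9 and 7.

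The joined peaks and their parts held the same tags. Where 1 T2D peak faced 2 control peaks, it had a median width of 1789 bp and 87 tags, and the control parts together had a median of 87 tags across a gap of 161 bp (quartiles 89 and 253 bp). Where 1 control peak faced 2 T2D peaks, it had 1681 bp and 83 tags, the parts 85 tags and the gap 159.5 bp. The median ratio of the joined peak's tags to those of its parts was 0.991 and 0.988. Short gaps between neighbours were fewer in the T2D list, with 677 of at most 200 bp against 927 in the control list, while sperm had 969 and 939.

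Since no region had more than 2 parts, position decided which examples are given. On chromosome 1, the T2D peak from 5817205 to 5818752 (87 tags) faced control peaks of 42 and 64 tags with a gap of 198 bp. The T2D peak from 6162449 to 6164430 (184 tags) faced control peaks of 85 and 104 tags with a gap of 206 bp, and that from 8845965 to 8847147 (64 tags) faced peaks of 19 and 38 tags with a gap of 98 bp. In the other direction, the control peak from 13329811 to 13331358 (99 tags) faced T2D peaks of 34 and 63 tags, that from 26087211 to 26088580 (56 tags) peaks of 30 and 34 tags, and that from 34220753 to 34222233 (117 tags) peaks of 65 and 45 tags.

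Tag ratios varied little from one large part of the genome to another. Means of log2 scaled tags per autosome ran from 0.0093 on chromosome 11 to 0.036 on chromosome 14. Between neighbouring pairs the correlation was weak, with a Pearson r of 0.14 between the log2 tag ratios of 881 neighbours less than 1000 bp apart, 0.063 for 4199 neighbours 1000 to 2000 bp apart and 0.018 for 43833 at 2000 to 10000 bp. In sperm the values were 0.11, 0.015 and 0.010. Islet pairs with peaks in both sperm lists (64120), in 1 sperm list (20726) and in none (24491) had width ratios of 1.031, 1.033 and 1.037 and SDs of log2 tags of 0.45, 0.46 and 0.45.

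Against this even background, 3 stretches stood out in which nearly every pair held more tags in T2D islets. They were found after the data were seen, by averaging log2 scaled tags over windows of 250 kb with at least 10 pairs, so their islet ratios are a description of how they were chosen. Of 5457 islet windows, 5 had a mean of at least 1.5-fold higher in T2D and 0 a mean of at least 1.5-fold lower. The median window was at 0.018, and the 1st and 99th percentiles were -0.27 and 0.33. Of 5918 sperm windows, 1 was higher and 0 were lower. The 5 islet windows lay on chromosomes 16 (1 window), 2 (2 windows) and 17 (2 windows), and each stretch was bounded by the outermost pairs in the windows that were at least 1.1-fold higher in T2D, plus adjoining pairs that were so too.

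On chromosome 17, the stretch ran from 30559093 to 31054217, over 495 kb. Of its 32 islet pairs, 31 held more tags in T2D and 1 held 30 in both lists, with 3845 T2D against 2323 control tags in all, a ratio of 1.66 (1.58 to 1.75). Examples from left to right are the pairs starting in T2D at 30575879 (33 against 20 tags), 30614303 (95 against 45), 30698640 (149 against 62), 30793272 (273 against 217), 30949041 (311 against 200) and 31015754 (188 against 51). It contained the longest run of consecutive pairs at least 1.1-fold higher in T2D on any autosome, 29 pairs over 478 kb, where the longest run lower in T2D anywhere in islets had 10 pairs. In the flanks of the same length the ratio was 0.918 (0.865 to 0.975) before and 0.983 (0.920 to 1.05) after the stretch. Sperm, which played no part in finding the stretch, had 34 of 38 pairs higher in T2D there, with 5239 against 3524 tags, a ratio of 1.49 (1.43 to 1.56), and flanks at 1.06 (1.01 to 1.11) and 0.965 (0.917 to 1.02). Counting all peaks, the T2D list had 51 and the control list 55 in the stretch, with 5808 against 3948 tags. The single 1.5-fold sperm window lay within it, from 30750001 to 31000000.

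On chromosome 2, the stretch ran from 176970304 to 177348831, over 379 kb, and all 23 islet pairs had more tags in T2D. They held 3534 T2D and 1718 control tags, a ratio of 2.06 (1.95 to 2.19). Among them were the pairs starting in T2D at 177020802 (331 against 138 tags), 177146183 (221 against 115), 177259093 (316 against 175), 177307248 (473 against 194) and 177331224 (293 against 144). Its edges were less sharp, since the flanks of the same length had ratios of 1.48 (1.29 to 1.71) before and 1.27 (1.1 to 1.47) after it. Counting all peaks and not pairs alone, the T2D list had 44 peaks and the control list 25. Sperm had few pairs there, and 6 of 6 were higher in T2D, with 669 against 338 tags, a ratio of 1.98 (1.74 to 2.27).

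On chromosome 16, the stretch ran from 3334302 to 3690799, over 356 kb, with 12 of 12 islet pairs higher in T2D. They held 947 against 423 tags, a ratio of 2.25 (2.00 to 2.53). From left to right, their T2D and control tags were 35 and 25, 100 and 72, 104 and 23, 69 and 22, 63 and 45, 83 and 57, 55 and 24, 88 and 25, 95 and 27, 93 and 32, 56 and 31, and 106 and 40. The T2D list had 22 peaks in the stretch and the control list 12. The flanks gave 0.991 (0.842 to 1.17) and 0.986 (0.910 to 1.07). Sperm tags were near equal there, with 3 of 11 pairs above equal tags, 741 against 784 tags and a ratio of 0.947 (0.855 to 1.05). With pairs of like width alone, the mean log2 ratio in islets dropped from 1.21 over 12 pairs to 0.57 over 5 pairs.

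Without an input library, the tags in these stretches could not be set against the amount of DNA there. Both width and density took part in each of them. Mean log2 ratios of width and of scaled tags per kb were 0.39 and 0.38 on chromosome 17, 0.33 and 0.58 on chromosome 2, and 0.68 and 0.53 on chromosome 16. Leaving out the 3 stretches changed the number of 2-fold higher pairs from 2251 to 2226.

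**Figure D5:**
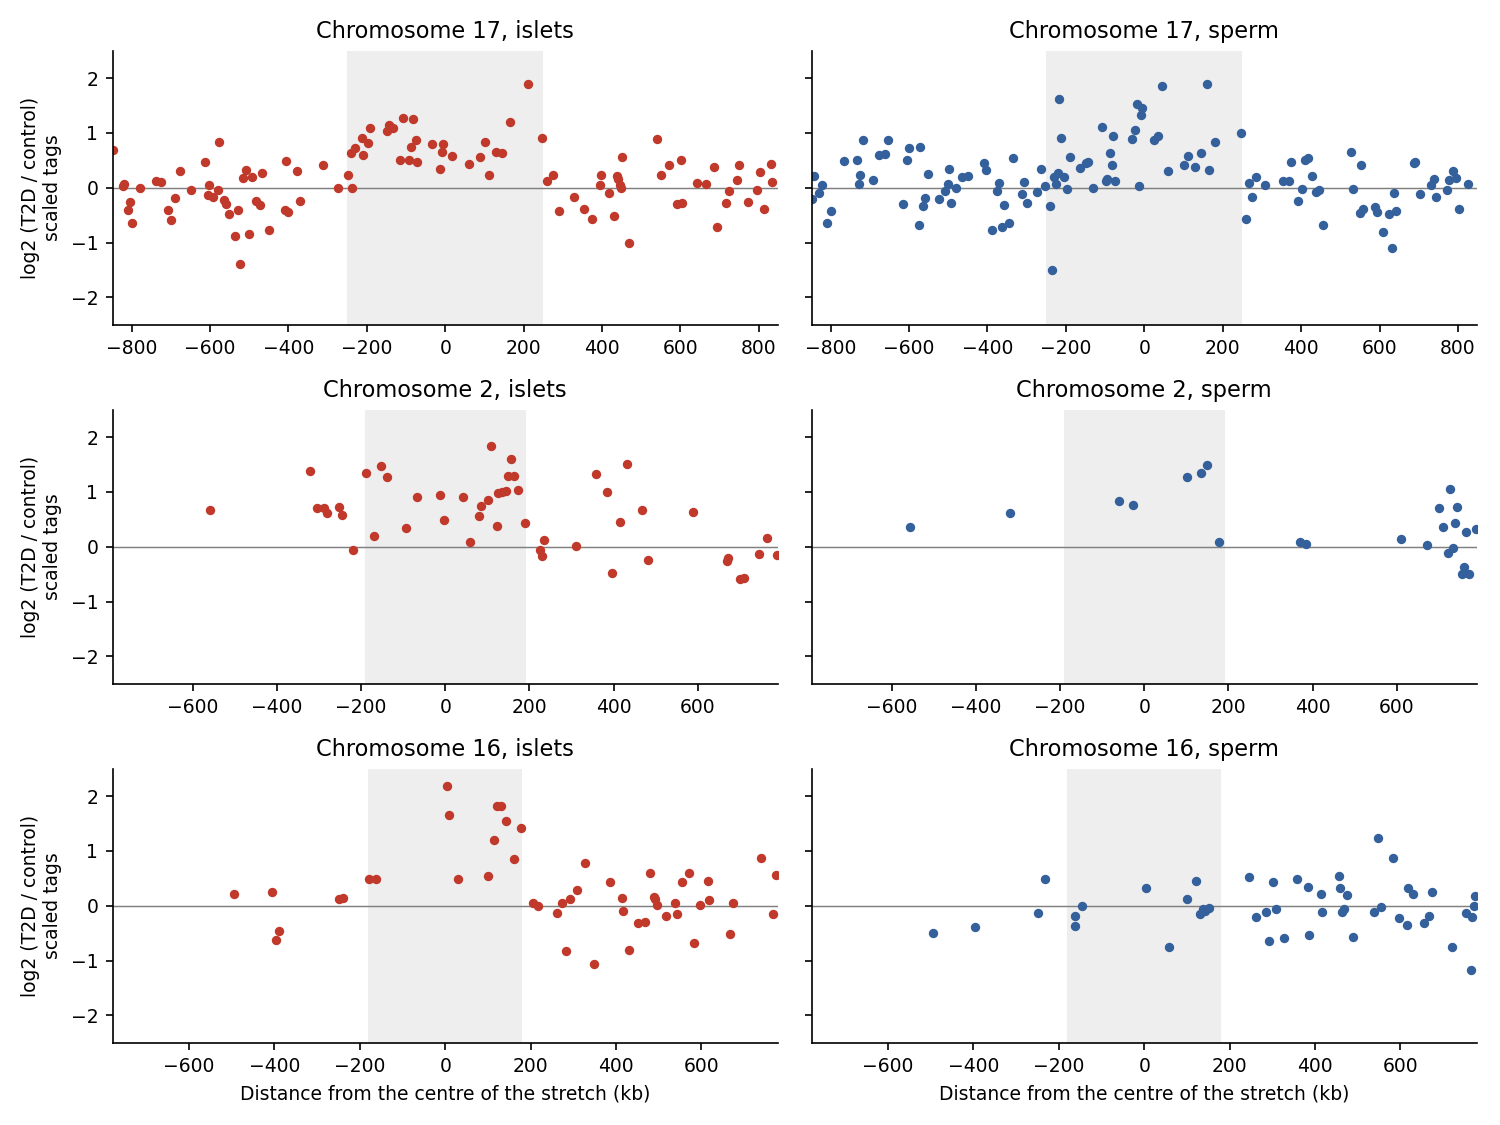
Log2 ratio of T2D over control scaled tags (vertical axis) for each one-to-one pair, by distance from the centre of the stretch (kb), on chromosomes 17, 2 and 16, with islets left and sperm right. The shaded band is the stretch, where islet pairs lie above 0 on all 3 chromosomes (1 of the 32 on chromosome 17 held equal tags) and sperm pairs lie mostly above 0 on chromosomes 17 and 2 but not on 16.

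Tag ratios in islets and sperm were hardly correlated. Over 63533 regions that held a single pair in each tissue, the Pearson r between the islet and the sperm log2 tag ratio was -0.0020, and it was -0.0033 over the 63503 regions outside the 3 stretches. Of the 2083 islet pairs among them that changed 2-fold or more, 111 (5.33%) changed 2-fold or more in sperm too, where 2.57% of all these regions did. They were 6.80% of the 1632 regions with a 2-fold change in sperm. Of the 111, 35 were higher in both tissues, 22 were lower in both, and the others changed in opposite directions. These overlaps were not tested.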

How the data were processed

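MeDIP-seq peak lists from 4 libraries were used, 1 list per library, and the comparison rested on the 2 islet lists. Coordinates are on mm9, and CASAVA 1.4 was used, per the submitters' processing notes. The sperm lists came from MACS without an input library, at a p-value cutoff of 1.00e-05, per the file headers. The sources used here give neither caller and settings nor total depth for the islet lists. Without an input library, tags are not set against the amount of mappable DNA at a position.

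The authors deposited whole-number counts of tags per peak, the peak width and the summit offset in bp, a score equal to 10 times minus log10 of the peak's p-value, and a fold enrichment over background. The deposited fold enrichment ratio was not used. The score served only to filter peaks. T2D tags were multiplied by 1.004, the ratio of the summed autosomal tags of the control and T2D lists (1.002 in sperm). Log2 ratios are T2D over control. Peaks on the autosomes that overlapped by 1 bp or more were joined into regions with Python 3.11.15, numpy 2.4.6, pandas 2.3.3 and scipy 1.17.1. A region with 1 peak of each list is a pair. The steps were tested on simulated lists. Intervals are exact binomial intervals at 95% (for a median, the corresponding order statistics). Those of tag ratios cover the counting of tags only and treat tags as independent, which PCR copies are not. Those of medians and of the ratio of joined peaks treat pairs or regions of the same 2 libraries as independent draws. None covers variation between animals or libraries.

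No test was made, with 1 library a group. Regions were named by rule: the 5 highest and 5 lowest ratios of scaled tags among pairs with at least 100 tags, the 3 largest gains and losses of width among pairs with a score of at least 100 in both lists, the 3 largest summit distances among pairs with at least 100 tags and like widths (the narrower peak at least 80% of the broader), the 5 pairs with most tags, and 3 regions per direction with most peaks facing 1 peak. Alternatives covered the overlap, the score, the chromosomes, the scaling, the tag minimum and the width match. The members, measures and rules were chosen with earlier results of these data known. Windows of 250 kb, runs of consecutive pairs and the regions named by tags per kb were added after the data were seen. The gene table used here is on another build than the peaks, so no gene was assigned to a position and no sequence is shown.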

Additional observations from a re-analysis of the deposited data

Results flagged for a closer look

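Islet pairs were wider in T2D, with a median log2 width ratio of 0.047, while the sperm median of -0.0029 lay on the other side of 0; each tissue has 1 library per group and the difference was not tested. Scaled tags per kb showed the opposite pattern, with a median of -0.034 in islets and 0.014 in sperm, also not tested. Joined T2D peaks (528, 0.243% of regions) outnumbered joined control peaks (312, 0.144%) in islets. In sperm they were fewer (494, 0.216%, against 512, 0.224%), and this difference was not tested either.

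The stretch on chromosome 16 had a mean log2 ratio of scaled tags of 1.21 over 12 islet pairs and of -0.067 over 11 sperm pairs, which was not tested. Outside the autosomes, the 2080 islet pairs on X had a median log2 ratio of scaled tags of 0.076 (0.056 to 0.099), above the autosomal 0.0055. Of these 2080 pairs, 53 were at least 2-fold higher and 17 at least 2-fold lower in T2D. Among autosomal islet pairs the shares were 2.06% and 1.36%. The 1028 sperm pairs on X gave a median of 0.0026, with 13 higher and 9 lower. Offspring sex is unstated, and a difference in sex between the groups and one in condition cannot be told apart on X.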

How the results depend on the processing

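No paired analysis was possible because each group had 1 library and the labels carry no shared replicate numbers. Including X and Y gave a median log2 tags of 0.0034 in place of 0.0055, and it kept the direction of every median and moved no count by over 1.5 times. Leaving out the 3 stretches left the direction or the count (within 1.5 times) as it was for the 2-fold counts and the medians of tags, tags per kb and width. With an overlap of at least 50% of both peaks, 1129 pairs were 2-fold higher (1.09%) and 816 lower (0.790%). Median log2 tags per kb was then -0.029 and width 0.041, and joined peaks were 0 in both directions by construction. With a score of at least 100, 33748 pairs remained, of which 316 were 2-fold higher (0.936%) and 146 lower (0.433%). Tags in that set were scaled to the summed tags of the filtered lists. Median log2 tags was 0.059 (interval 0.059 to 0.059) and width 0.039, and tags per kb turned to 0.018. The summit distance was 27 bp, and joined peaks numbered 9 and 7. Where the median pair holds equal tags, 0.059 is the scaling itself, and tags per kb without it lies below 0. The cause of the other changes in that set was not tested. Scaling to the tags of pairs turned median log2 tags to -0.014 and gave -0.053 for tags per kb; tags as deposited gave 0 and -0.040. With at least 100 tags, 980 pairs were higher (2.05% of such pairs) and 715 lower (1.49%), against 2.06% and 1.36% of all pairs. In pairs of like width the summit distance was 31 bp, with 231 higher (0.370%) and 199 lower (0.319%) pairs. Islet depth was not stated, and differences in regions called in a single list cannot be measured from these lists.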
